A study of Mus musculus with 6 samples.

Results

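Csf1r, which encodes the receptor of colony-stimulating factor 1 (CSF1), and Csf1 and Il34, which encode its ligands, were followed in AY-mICC, a mouse tumour line used in a study of intrahepatic bile duct cancer. These 3 genes were taken from the 55414 gene identifiers of the deposited count table by matching Ensembl identifiers to mouse symbols. The set was selected on the measured expression level of Csf1r in this line, with the differences between the groups already known, so their levels and their differences between the groups are given as a description, with no test. All 3 were among the 14807 genes that passed the filter on low counts. The groups were shCopa, 3 libraries of AY-mICC cells in which Copa was knocked down, and shCon, 3 libraries of AY-mICC control cells, both under the same serum-containing culture and, per the labels, with no further treatment. Copa codes for a subunit of the COPI coat, which covers vesicles that carry proteins back to the endoplasmic reticulum. The sources used here do not give the number of hairpins, whether either line was a clone or whether replicates were separate cultures. The p-values therefore reflect differences among these libraries, and that spread may be technical.

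CSF1R is a receptor tyrosine kinase of class III, the family that also holds KIT, FLT3 and the receptors of platelet-derived growth factor. It is best known from macrophages, which depend on it for survival and growth. CSF1 is made as secreted and as membrane-bound forms, of which proteases release the membrane-bound ones, while IL-34 has no clear sequence similarity to CSF1 and yet binds the same receptor. Binding pairs receptor molecules, which phosphorylate one another and recruit adaptors, Src-family kinases and phosphoinositide 3-kinase.

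The libraries held 19634876 to 24546142 estimated counts, and values are given as CPM, counts brought to a common library size, with sizes scaled by the trimmed mean of M values (TMM). Copa stood at 186, 182 and 187 CPM in shCopa libraries, against 420, 517 and 527 CPM in shCon libraries (log2 fold change -1.40 ± 0.11, SE; edgeR quasi-likelihood test, adjusted p = 0.000149). The library shCon 1 stood apart from its group: its log2 CPM correlated across genes with those of shCon 2 and shCon 3 at r = 0.9734 and 0.9719, where the other within-group pairs lay at 0.9888 to 0.9907. Of the epithelial markers of the bile duct, Krt8, Krt18 and Spp1 (osteopontin) stood at 1134 CPM or more in every library, whereas Epcam was at 0.177 to 0.354 CPM in shCopa and 0.429 to 0.790 CPM in shCon.

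The promoter of Csf1 is shown because Csf1 was the only one of the 3 genes whose level was higher in shCopa. It was read from RefSeq (GRCm38.p6, chr3:107760420-107760719, minus strand, 5′ to 3′ along the gene) and covers 250 bases before the transcription start and 50 bases after it; 1 of the 3 genes was matched in the promoter table. Capitals mark matches to the NF-kB consensus and to the GC box GGGCGG.
Csf1: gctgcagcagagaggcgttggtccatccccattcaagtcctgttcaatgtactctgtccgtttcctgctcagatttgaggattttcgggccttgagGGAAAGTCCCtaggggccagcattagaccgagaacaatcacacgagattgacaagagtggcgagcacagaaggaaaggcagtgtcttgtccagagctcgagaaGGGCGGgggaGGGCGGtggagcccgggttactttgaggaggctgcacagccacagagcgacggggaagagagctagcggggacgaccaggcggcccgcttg
Both strands were searched. The NF-kB consensus matched once, on the strand opposite to the gene, from 154 to 145 bases before the start. The GC box, the motif of SP1-type factors, matched 2 times, and its matches did not overlap the NF-kB match. Among 32851 promoters of this length, 8.46% held a match to the NF-kB consensus and 35.7% one to the GC box. Neither the AP-1 motif TGANTCA nor the interferon-stimulated response element matched in this window; 7.81% and 3.44% of promoters held them. The motifs were chosen after the sequence had been read, and a match is a description of letters only.

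The receptor transcript was lower in the knockdown cells. Csf1r (ENSMUSG00000024621) stood at 87.4, 87.2 and 89.2 CPM in shCopa libraries, against 141, 174 and 181 CPM in shCon libraries. The shCopa libraries lay close together and below all 3 shCon libraries, of which shCon 1 was the lowest. The means were 87.9 ± 1.10 CPM in shCopa and 165 ± 21.2 CPM in shCon (SD, n = 3 each), a fitted log2 fold change of -0.91 ± 0.11 (SE), or 53.2% of the control level. These values rest on 1764 to 4394 estimated counts per library. In these bulk libraries, fewer cells with Csf1r and less Csf1r RNA per cell cannot be told apart.

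Csf1 differed in the opposite direction. Csf1 (ENSMUSG00000014599) stood at 700.2, 682 and 679.7 CPM in shCopa libraries, against 351, 348 and 373 CPM in shCon libraries. No shCopa library came near any shCon library, and shCon 1 did not stand apart for this gene. Csf1 averaged 687 ± 11.3 CPM in shCopa and 357 ± 13.9 CPM in shCon (SD, n = 3 each). The fitted difference was 0.94 ± 0.08 (SE) on the log2 scale, or 1.92-fold. The counts do not separate transcripts of the secreted and membrane-bound forms.

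Il34 (ENSMUSG00000031750), the other ligand, differed in the direction of the receptor and not of Csf1. It stood at 47.7, 51.1 and 45.7 CPM in shCopa libraries, against 96.9, 82.2 and 68.5 CPM in shCon libraries. The groups did not overlap, and the shCon libraries were widely spread, with shCon 1 the highest, where for Csf1r it was the lowest. Il34 averaged 48.2 ± 2.74 CPM in shCopa and 82.5 ± 14.2 CPM in shCon (SD, n = 3 each). The fitted difference was -0.78 ± 0.14 (SE) on the log2 scale, or 58.4% of the control level. Over the 14 alternatives to the fit it varied more than those of Csf1r and Csf1: -0.91 without shCon 3, -0.65 without shCon 1 and -0.57 with offsets for transcript length and GC content.

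For Csf1r, Csf1 and Il34 alike, no shCopa library fell within the shCon range. Across all tested genes this held for 54% of genes, 27.2% with shCopa higher and 26.9% with shCopa lower, so a lack of overlap was common in this comparison. By fold change, 8.52% of tested genes were below Csf1r and 11.2% below Il34, while 90.7% were below Csf1; the median of all tested genes was -0.01 on the log2 scale.

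**Figure D1:**
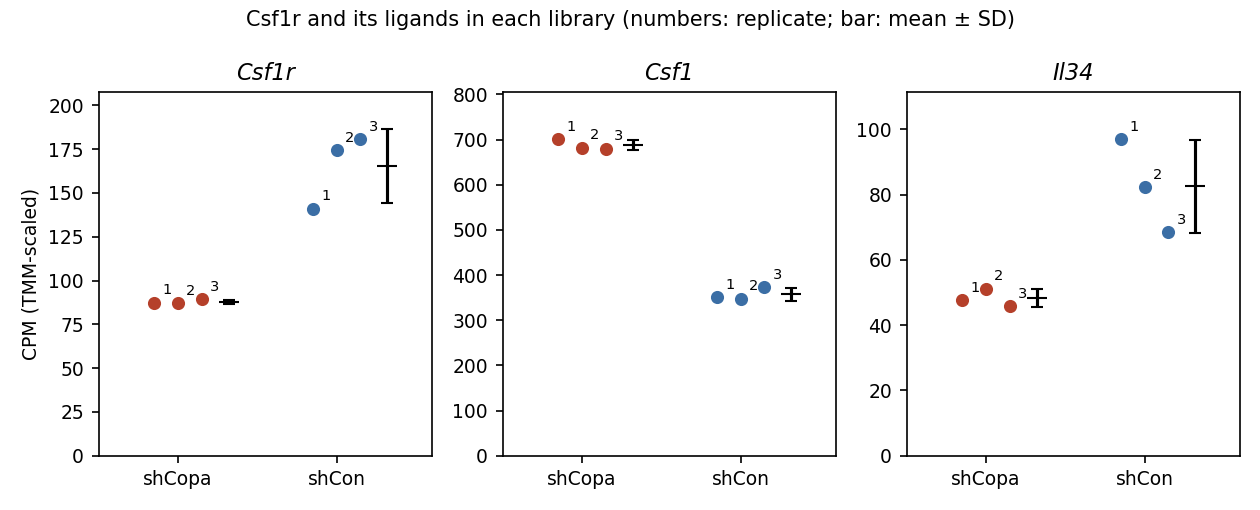
CPM on TMM-scaled library sizes (vertical axes, from 0) of Csf1r, Csf1 and Il34 in each shCopa (red) and shCon (blue) library; numbers give the replicate, and black bars the mean ± SD of 3 libraries. Csf1r and Il34 lay lower in every shCopa library, at 87.2 to 89.2 and 45.7 to 51.1 CPM, and Csf1 higher, at 679.7 to 700.2 CPM.

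Levels of different genes were set side by side per kilobase of the longest protein-coding transcript (4701 bases for Csf1r, 4176 for Csf1 and 1796 for Il34). On this scale Csf1 was the highest of the 3 in every library, at 165 ± 2.70 CPM per kb in shCopa and 85.5 ± 3.34 CPM per kb in shCon (SD, n = 3 each). That level exceeded 97.6% of tested genes in shCopa and 94.4% in shCon. Il34 followed at 26.8 ± 1.52 CPM per kb in shCopa and 46.0 ± 7.91 CPM per kb in shCon, and Csf1r at 18.7 ± 0.234 CPM per kb in shCopa and 35.2 ± 4.51 CPM per kb in shCon. The receptor thus exceeded 73.4% of tested genes in shCopa and 85.2% in shCon. The order of Il34 and Csf1r did not hold throughout. In shCon libraries their ranges overlapped, with Il34 at 38.1 to 53.9 and Csf1r at 30.0 to 38.4 CPM per kb, and Csf1r was the higher in shCon 3. With the mean transcript length in place of the longest, Csf1r was above Il34 in all 6 libraries.

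The balance of ligand transcripts differed with the knockdown. Csf1 made up 86.3%, 85.2% and 86.5% of the summed length-scaled level of Csf1 and Il34 in shCopa libraries, against 60.9%, 64.5% and 70.1% in shCon libraries. The sum itself was 188 to 194 CPM per kb in shCopa and 128 to 138 CPM per kb in shCon, so it was higher in every shCopa library although Il34 was lower. The ratio of Csf1 to Csf1r was 8.58 to 9.02 in shCopa and 2.24 to 2.80 in shCon. By contrast, the ratio of Il34 to Csf1r was 1.34 to 1.53 in shCopa and 0.993 to 1.80 in shCon, ranges that overlap. With the mean transcript length, the share of Csf1 was 92.3% to 93.0% in shCopa and 76.4% to 83.0% in shCon.

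**Figure D2:**
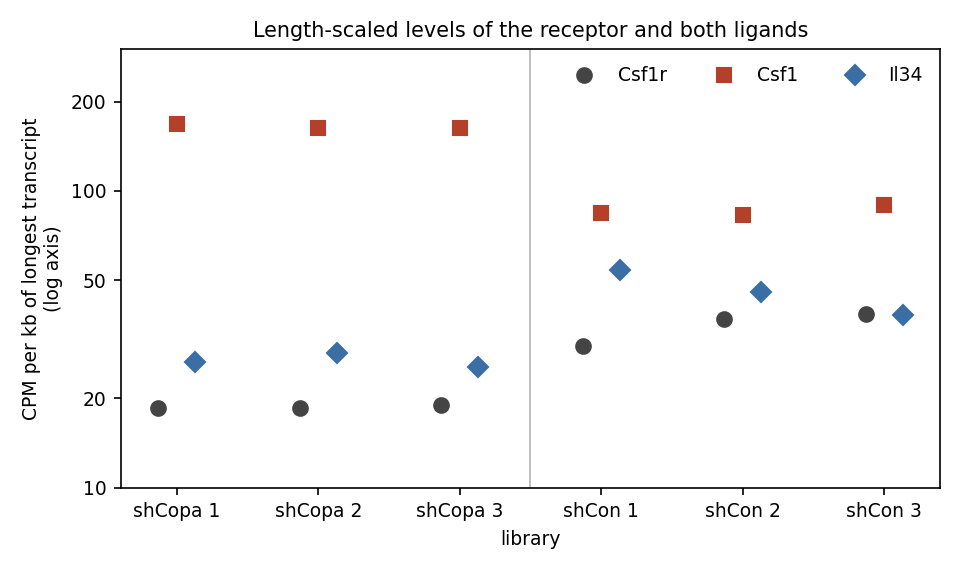
CPM per kilobase of the longest transcript (vertical log axis) of Csf1r, Csf1 and Il34 in the 6 libraries, shCopa to the left of the line and shCon to the right. Csf1 lay at 163 to 168 CPM per kb in shCopa and at 83.2 to 89.4 in shCon. Over all libraries Il34 lay at 25.5 to 53.9 and Csf1r at 18.6 to 38.4 CPM per kb, and these 2 nearly coincided in shCon 3.

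Csf1r is a common macrophage marker, and its level was set beside 20 markers of macrophages and monocytes. Of these, 6 had no count in any library (Tyrobp, C1qa, C1qb, C1qc, Timd4 and Vsig4), and 16, these 6 included, stayed under 1 CPM in every library. Those with no count encode, among others, the signalling adaptor DAP12 and the chains of complement C1q, which are abundant in tissue macrophages. The pan-leukocyte gene Ptprc (CD45) stood at 0.930, 1.08 and 1.26 CPM in shCopa libraries, against 0, 0.0429 and 0.0411 CPM in shCon libraries, and Adgre1 (F4/80) at no more than 0.0443 CPM. The 3 most abundant markers carried nearly all of the list: Cd14, the co-receptor for lipopolysaccharide, Cd68, a lysosomal membrane protein, and Lyz2, a lysozyme. Without them the other 17 markers summed to 1.82 to 2.17 CPM in shCopa and 0.288 to 0.386 CPM in shCon, where Csf1r alone was at 87.2 to 89.2 CPM in shCopa and 141 to 181 CPM in shCon. Ptprc was the most abundant of the 17 and rose, opposite in direction to Csf1r (log2 fold change 4.99 ± 0.57, SE, edgeR adjusted p = 0.000641). Its counts were few, at 21, 25 and 25 in shCopa libraries, against 0, 1 and 1 in shCon libraries. The part of other cells in the level of Csf1r was not tested.

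Summed over all 20 macrophage and monocyte markers, the level was 70.3 to 81.5 CPM in shCopa and 103 to 142 CPM in shCon, lower in shCopa as Csf1r was, while the sum of the 17 was higher. Cd14 fell (50.3 ± 4.82 CPM in shCopa and 102 ± 20.7 CPM in shCon, SD, n = 3 each; edgeR adjusted p = 0.00233), Lyz2 rose (8.21 ± 0.225 CPM in shCopa and 1.46 ± 0.333 CPM in shCon; adjusted p = 0.000159) and Cd68 did not pass (14.5 ± 0.613 CPM in shCopa and 13.4 ± 0.799 CPM in shCon; adjusted p = 0.436). Lymphocyte markers summed to 0.152 to 0.310 CPM in shCopa and 0.0464 to 0.164 CPM in shCon, with Cd3g and Cd2 at 0 in all libraries and Cd79a and Ms4a1 among the most abundant. Endothelial markers summed to 2.52 to 4.55 CPM in shCopa and 0.411 to 0.601 CPM in shCon; Kdr, Vwf and Pecam1 led, and Tie1 was at 0 in all libraries. Hepatocyte markers, led by Alb, Hnf4a and Tat, summed to 33.0 to 34.9 CPM in shCopa and 12.6 to 16.8 CPM in shCon. Fibroblast and pericyte markers summed to 169 to 184 CPM in shCopa and 183 to 222 CPM in shCon, nearly all of it Dcn (decorin), followed by Col1a1 and Acta2. Bile duct markers summed to 8563 to 9043 CPM in shCopa and 11611 to 14716 CPM in shCon.

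**Figure D3:**
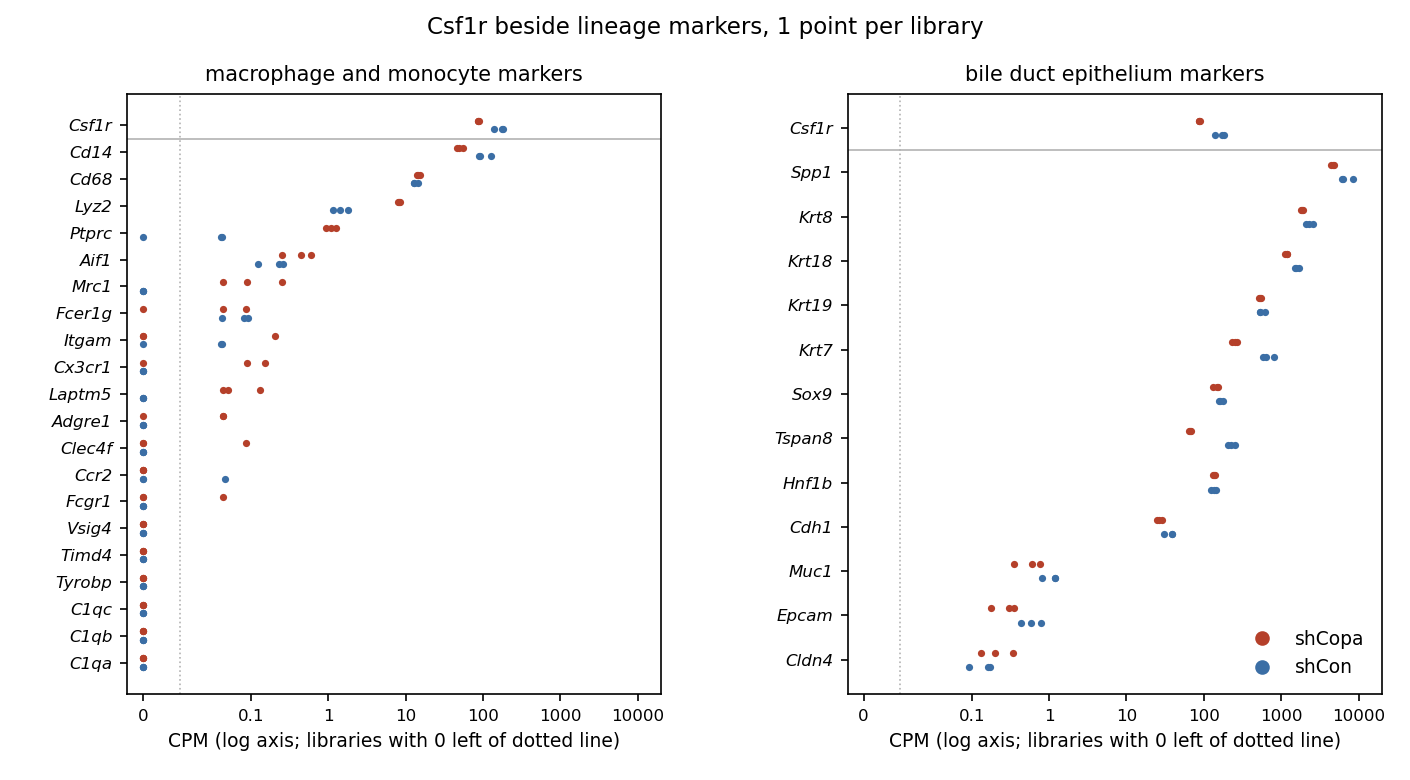
CPM (horizontal log axis, libraries with 0 drawn left of the dotted line) of 20 macrophage and monocyte markers and 12 bile duct epithelium markers in shCopa (red) and shCon (blue) libraries, 1 point per library, with Csf1r in the top line of each panel. Csf1r lay at 87.2 to 181 CPM over all libraries, and 6 of the macrophage markers had no count at all.

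Reads of adjacent genes can be divided between them, and the sources used here do not state whether the counting used strand. Pdgfrb, which encodes a receptor of platelet-derived growth factor and lies next to Csf1r, was at 0.487, 1.12 and 0.506 CPM in shCopa libraries, against 2.37, 2.40 and 2.01 CPM in shCon libraries, and fell (adjusted p = 0.0101). Hmgxb3 on the other side, whose span overlaps that of Csf1r on the opposite strand in GENCODE M21 (GRCm38), rose (63.8 ± 1.54 CPM in shCopa and 47.9 ± 4.09 CPM in shCon, SD, n = 3 each; edgeR adjusted p = 0.0121), opposite in direction to Csf1r. Reads of their shared part cannot be told apart without the strand. Of the neighbours of Csf1, Ahcyl1 did not pass (log2 fold change -0.15 ± 0.09; adjusted p = 0.248) and Eps8l3 had 0 to 0.0864 CPM. The neighbours of Il34, Mtss2 and Sf3b3, did not pass either (-0.16 ± 0.17 and -0.08 ± 0.09; adjusted p = 0.509 and 0.510). The antisense genes that overlap Il34, Gm15894 and Gm15895, had 0.152 to 0.310 and 2.72 to 3.89 CPM in shCopa, and 0.172 to 0.279 and 2.70 to 3.08 CPM in shCon.

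Of all 14807 genes tested, 36.5% passed the threshold of an adjusted p under 0.05, 18.2% higher and 18.4% lower in shCopa. The genes around the receptor, 86 in 7 lists by role, are read against these shares; 79 passed the filter on low counts, and of those 23 rose, 15 fell and 41 did not pass. Their median log2 fold change was 0.09. The lists were chosen with earlier results of these data known. The numbers over all genes also changed with a library left out. Without shCon 1, 4317 of 15273 tested genes were higher and 4122 lower in shCopa, against 2691 and 2720 with all 6 libraries. With any 1 shCopa library left out, 1778 to 1919 were higher and 1755 to 1791 lower. Without shCon 2 or shCon 3, 2215 and 2364 were higher. Counts of list members in these fits are read against these numbers. Egr1 and Fos stand in both the list of transcription factors and that of ERK-responsive genes.

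Among 22 genes that relay the signal below CSF1R, 4 rose, 5 fell and 13 did not pass, with a median log2 fold change of 0.10. The adaptor Gab2 rose to 42.6, 47.5 and 44.6 CPM in shCopa libraries, against 20.6, 28.6 and 26.6 CPM in shCon libraries (log2 fold change 0.83 ± 0.14; edgeR adjusted p = 0.00317). Its relative Gab1 rose (0.47 ± 0.08), and so did Fyn (0.35 ± 0.08), a Src-family kinase, though Fyn no longer passed when any 1 shCopa library, or shCon 3, was left out, or with no filter on low counts. Mapk3, which encodes the kinase ERK1, fell to 44.8% of control (106 ± 5.12 CPM in shCopa and 236 ± 27.4 CPM in shCon, SD, n = 3 each; adjusted p = 0.000296). Pik3r2, a regulatory subunit of phosphoinositide 3-kinase, fell to 59.9% and Akt2, a kinase downstream of it, to 60.0% of control. Without shCon 1, 7 members rose and 9 fell, in a fit that called more genes in each direction over all genes as well. Without shCopa 1, 3 members fell, in a fit that called fewer genes.

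Negative regulators split as well: of 10, 3 rose, 2 fell and 5 did not pass, with a median of -0.15. Ubash3b (STS-1), a phosphatase that acts on activated tyrosine kinases, rose 2.77-fold, to 15.1, 16.9 and 16.7 CPM in shCopa libraries, against 5.06, 5.67 and 6.82 CPM in shCon libraries (edgeR adjusted p = 0.000395). Inpp5d, which encodes the lipid phosphatase SHIP1, rose at a low level, with 26, 29 and 24 counts in shCopa libraries, against 0, 2 and 4 counts in shCon libraries (log2 fold change 3.72 ± 0.59; adjusted p = 0.00274). Ptpn1, the phosphatase PTP1B, fell to 49.6% of control (51.4 ± 3.17 CPM in shCopa and 103 ± 5.35 CPM in shCon, SD, n = 3 each), and Socs3, an inhibitor of cytokine signalling, to 49.2%. The third member that rose was Dok1, an adaptor that restrains kinase signalling (0.68 ± 0.18); its shCon 1 value of 55.0 CPM was above the 35.2 and 34.8 CPM of shCon 2 and shCon 3. Dok1 no longer passed without any 1 library other than shCon 1, which left 2 members that rose. Cbl, the ubiquitin ligase that directs CSF1R to degradation, did not pass (0.42 ± 0.23; adjusted p = 0.188) and its shCon 1 value of 39.8 CPM was below the 75.4 and 72.9 CPM of the other controls. Without shCon 1, 4 members of this list fell, in a fit where more of all genes fell too.

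In the list of ligand shedding and other receptors of IL-34, 1 of 7 rose, 2 fell and 4 did not pass, with a median of -0.16. The members that moved include the 2 other receptors of IL-34 in this list, which moved in opposite directions. Sdc1, the proteoglycan syndecan-1, fell to 33.6% of control, at 65.6, 67.4 and 63.4 CPM in shCopa libraries, against 220, 182 and 181 CPM in shCon libraries (edgeR adjusted p = 8.83e-05). Ptprz1, a receptor phosphatase, rose 3.31-fold, to 5.98, 4.97 and 5.51 CPM in shCopa, against 1.25, 1.63 and 2.05 CPM in shCon (adjusted p = 0.00108). Adam10, a membrane protease, fell to 56.0% of control (121 ± 0.584 CPM in shCopa and 216 ± 35.4 CPM in shCon, SD, n = 3 each; adjusted p = 0.00241). Adam17, the protease known to release membrane-bound CSF1, did not pass (-0.29 ± 0.12; adjusted p = 0.0993), nor did its partners Rhbdf1 (-0.16 ± 0.11) and Rhbdf2 (0.21 ± 0.09). Without shCon 1, 3 members rose, in a fit where more of all genes rose too. Without shCon 2, 2 rose, although fewer of all genes did.

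Of 14 transcription factors known at Csf1r from myeloid cells, 13 were tested, of which 2 rose, 4 fell and 7 did not pass, with a median of -0.38. Spi1, which encodes PU.1, the main activator of Csf1r in macrophages, had few reads, with 3.36, 4.11 and 2.93 CPM in shCopa libraries, against 7.90, 4.04 and 4.11 CPM in shCon libraries, and did not pass (-0.62 ± 0.30; edgeR adjusted p = 0.152). Ets2, an ETS-family factor, fell to 55.8% of control (172 ± 4.34 CPM in shCopa and 309 ± 6.16 CPM in shCon, SD, n = 3 each; adjusted p = 0.000296), while its relative Ets1 rose 1.61-fold (205 ± 8.94 CPM in shCopa and 128 ± 13.7 CPM in shCon). Runx1, which encodes a partner of PU.1, fell to 66.2% of control, with shCon 1 (58.8 CPM) close to the shCopa libraries (48.1 to 55.9 CPM), and lost its call without any 1 library other than shCon 1 and with total counts in place of TMM. Jun, of the AP-1 complex, fell (-0.38 ± 0.08) and lost its call without shCopa 1 or shCopa 3. Tfec, a factor of the MITF family, rose at a low level (18, 25 and 22 counts in shCopa, against 0, 8 and 7 in shCon) and lost its call without any 1 library other than shCon 1. Cebpa fell (-1.29 ± 0.43; adjusted p = 0.04996), close to the threshold, and its shCon 1 value of 4.32 CPM was above the 1.93 and 2.01 CPM of the other controls. Cebpa no longer passed without any 1 shCopa library or with total counts. Nor did it pass with DESeq2 size factors, limma-voom, the filter of 1 CPM in 3 libraries or the length and GC offsets. With 1 library left out, 1 to 4 members fell; 1 fell without shCopa 1 or shCopa 3, and 2 without shCopa 2. The number that rose was 1 without any 1 library other than shCon 1.

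Of 17 genes that respond to ERK signalling, 9 rose and 0 fell, while 8 did not pass; the median was 0.55. Myc, the growth-promoting transcription factor, rose 4.22-fold, to 127, 143 and 141 CPM in shCopa libraries, against 33.8, 34.95 and 28.7 CPM in shCon libraries (edgeR adjusted p = 4.45e-05). Ccnd1, which encodes cyclin D1, rose 2.43-fold (2869 ± 117 CPM in shCopa and 1179 ± 53.7 CPM in shCon, SD, n = 3 each; adjusted p = 8.83e-05). Dusp4, a phosphatase of MAP kinases, rose 1.83-fold, and Fosl1 (FRA-1), a partner of Jun, rose at a low level (3.16 ± 1.08 CPM in shCopa and 0.187 ± 0.0623 CPM in shCon; 4.03 ± 0.40 on the log2 scale). The others that rose were Etv4 (1.76 ± 0.21), Ier3 (1.49 ± 0.15), Dusp5 (1.07 ± 0.17), Spred2 (0.55 ± 0.10) and Spry1 (0.46 ± 0.10). Among those that did not pass were Dusp6 (-0.26 ± 0.09), Spry2 (-0.32 ± 0.13), Etv5 (-0.15 ± 0.16), Egr1 (-0.63 ± 0.26) and Fos (0.09 ± 0.22). Most members of this list respond to other signals too. Without shCon 1, 2 members fell, and 3 fell with the offsets for transcript length and GC content. In each of these fits more of all genes fell as well.

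**Figure D4:**
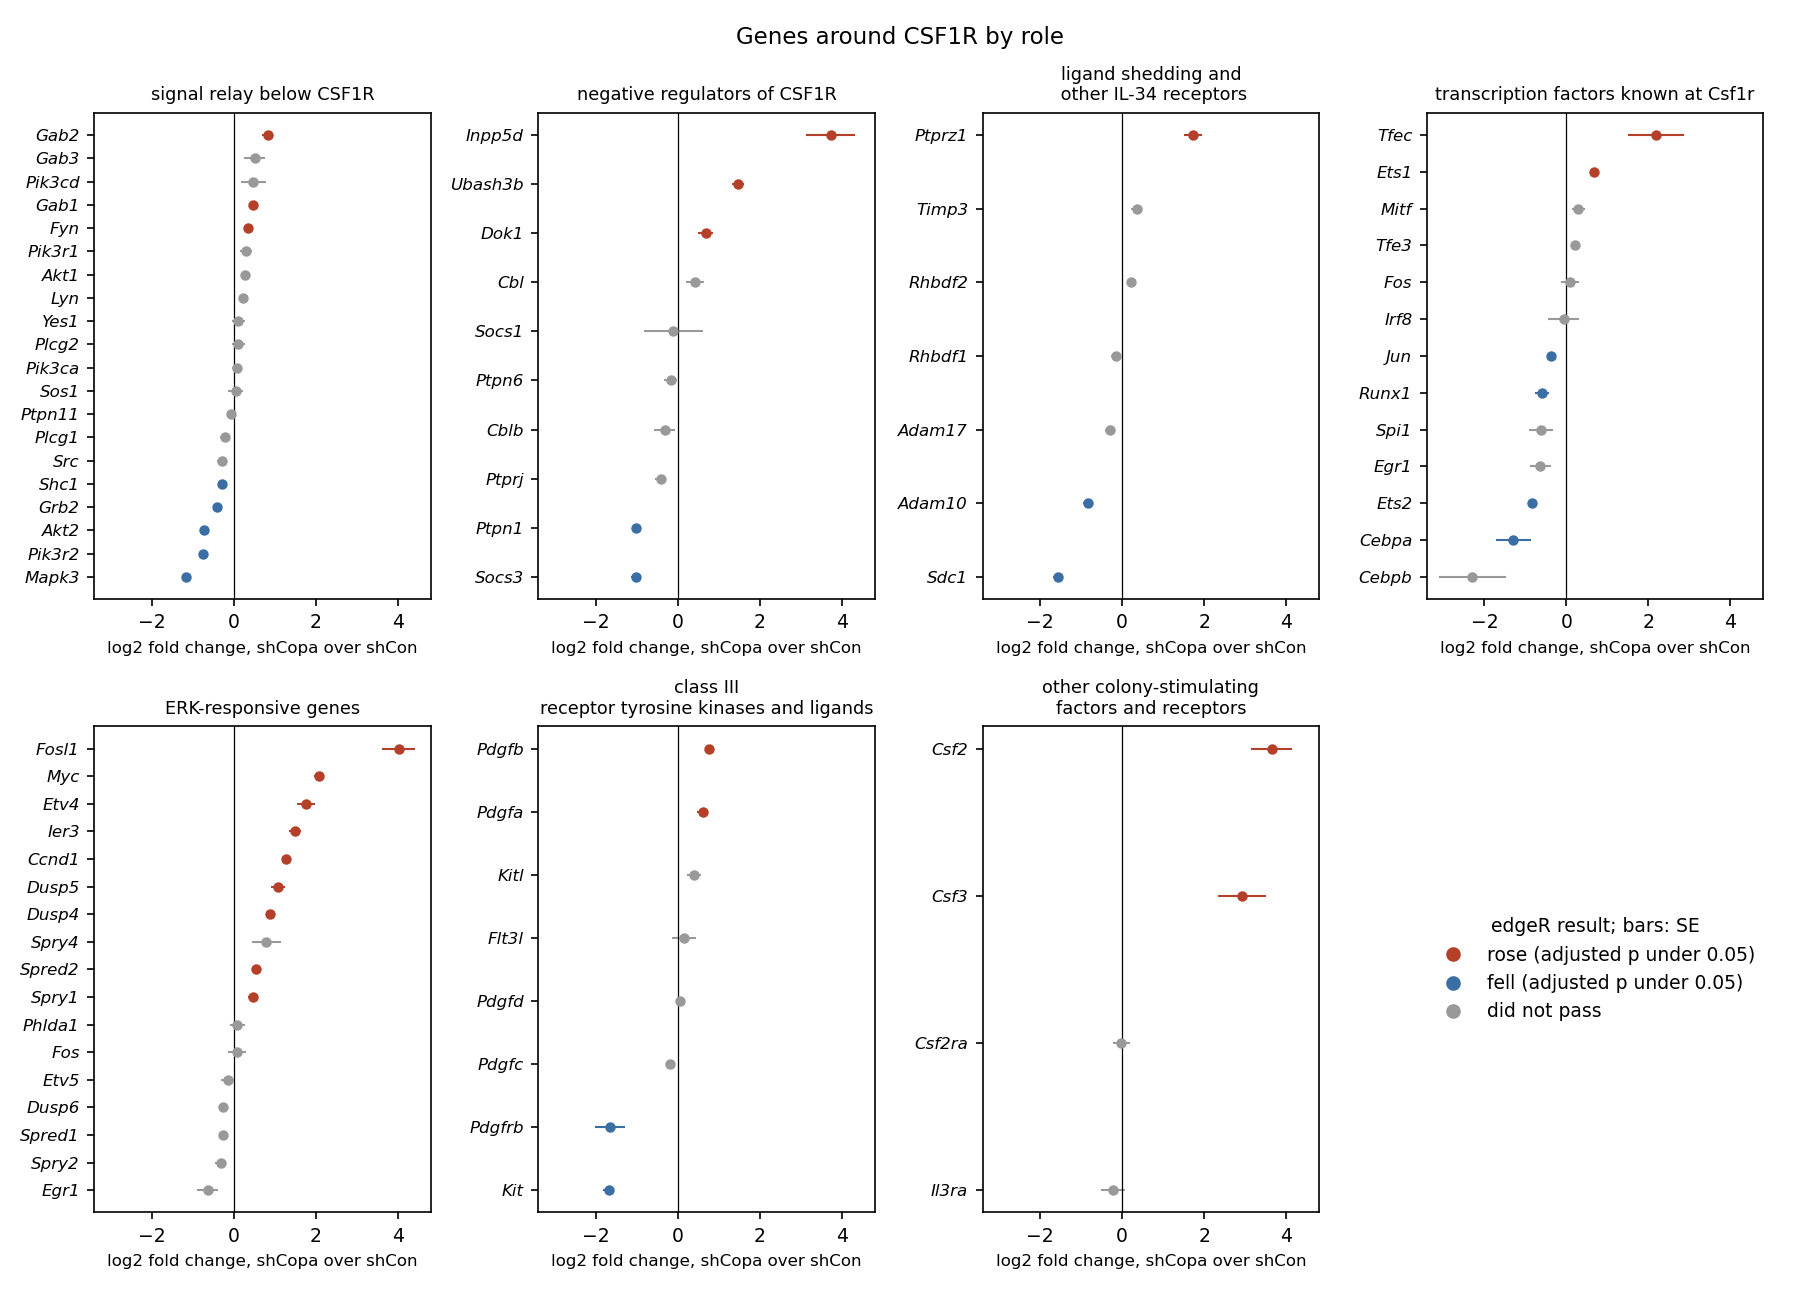
Log2 fold change of shCopa over shCon (horizontal axes, same range in every panel) with its SE for tested members of 7 lists of genes around CSF1R (genes not reported here are not drawn); red points rose, blue points fell and grey points did not pass (edgeR, adjusted p under 0.05). The panel of ERK-responsive genes has 9 red points and no blue ones, and the other panels with more than 4 genes hold both.

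Kit and Pdgfrb, of the same receptor class as CSF1R, fell. Kit, the stem cell factor receptor, fell to 31.1% of control, at 3.63, 3.33 and 3.69 CPM in shCopa libraries, against 10.8, 12.3 and 11.2 CPM in shCon libraries (edgeR adjusted p = 0.000171), and Pdgfrb fell to 31.6% (adjusted p = 0.0101). Flt3 had no count in any library. Of their ligands, Pdgfb rose 1.70-fold (466 ± 23.4 CPM in shCopa and 275 ± 36.2 CPM in shCon, SD, n = 3 each) and Pdgfa rose 1.52-fold. Pdgfa no longer passed without shCopa 1 or shCopa 2. Of 10 members, 8 were tested, of which 2 rose, 2 fell and 4 did not pass, with a median of 0.11. Those that rose encode ligands and those that fell encode receptors, but the 4 that did not pass (Kitl, Flt3l, Pdgfc and Pdgfd) also encode ligands. Pdgfrb had only 11, 26 and 10 counts in shCopa libraries. The receptor gene Pdgfra was not tested, with 4, 7 and 9 counts in shCopa libraries, against 2, 1 and 3 in shCon libraries.

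Of 8 genes of other colony-stimulating factors and their receptors, 4 were tested, of which 2 rose and 2 did not pass, with a median log2 fold change of 1.46. Csf2 and Csf3, which encode GM-CSF and G-CSF, rose on few counts. Csf2 had 22, 33 and 32 counts in shCopa libraries, against 4, 1 and 2 in shCon libraries (adjusted p = 0.00146 by edgeR), and Csf3 had 22, 15 and 16 counts in shCopa, against 1, 5 and 1 in shCon (adjusted p = 0.00695). The receptor chain Csf2ra stood at 21.0 to 23.6 CPM in shCopa and 17.1 to 30.5 CPM in shCon and did not pass, while Csf2rb, the signalling chain it needs, had no count in shCopa libraries and 2, 6 and 4 counts in shCon. Il3 had no count in any library.

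The genes with the pattern most like each of the 3 were sought by the root mean square difference of their log2 CPM, centred over the 6 libraries, among tested genes with a mean of at least 5 CPM. For Csf1r these were Bicc1 (0.039), Myo18a (0.043), Pcyox1, Map3k21 and Tbcel (0.050). For Csf1 they were Spcs3 (0.037), Dnttip2 (0.043), Nkrf, Gpr176 and Birc2 (0.053). For Il34 they were Tead2 (0.037), Klc4 (0.041), Pald1, 2310022B05Rik and Pgap3 (0.052). All values are in log2 units. The likeness rests on 6 libraries in 2 groups. Without shCon 1, the 5 nearest genes kept 2 of the names for Csf1r, 0 for Csf1 and 3 for Il34.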

How the data were processed

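RNA-seq of 6 AY-mICC libraries was used; groups and replicate numbers follow the titles. The values deposited are estimated counts for Ensembl genes in 1 table (10.6% to 11.9% of values per library not whole), not scaled to library size. The submitters' processing notes name GRCm39, featureCounts, HTSeq, DESeq2, HISAT2 2.0.5 and Trimmomatic. Which program made the estimated counts, and with which strand setting, is not given in the sources used here. How near-identical or overlapping genes share reads may thus affect their counts. Counts were rounded to whole numbers. Symbols came from a reference table of mouse Ensembl gene names (52081 of 55414 identifiers; identifiers without one held 0.201% to 0.464% of counts).

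The 3 genes, the lists, the tests and the rule for naming genes were chosen with earlier results of these data known. The fit used edgeR 4.0.16 in R 4.3.3 with TMM scaling, filterByExpr, robust quasi-likelihood fits and Benjamini-Hochberg adjustment over 14807 genes at a threshold of 0.05. Fold changes are shCopa over shCon on the log2 scale, and each SE was derived from the F statistic; CPM use TMM-scaled sizes. At these depths 3 counts, the limit that a count of 0 allows, were worth 0.123 to 0.152 CPM (counting error only). No within-group pair agreed within sampling noise (chi-square per degree of freedom 4.39 to 88.3). Transcript lengths and GC content came from GENCODE M21 transcripts (99.8% of tested genes). Steps were tested on simulated counts in which no library stood apart as shCon 1 does, so the simulation does not cover that feature of these data. From each list were named the 4 members with the smallest adjusted p among those that passed, members against the majority where 5 or fewer, and genes with no count; from each marker list the 3 most abundant; any other gene of the lists was named after its values were seen. Some genes of the lists, which their counts include, are not reported here. Alternatives were other scalings and filters, DESeq2 1.42.0, limma-voom (limma 3.58.1), the replicate block, length and GC offsets, and each library left out.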

Additional observations from a re-analysis of the deposited data

How the results depend on the processing

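Csf1r, Csf1 and Il34 kept the direction of their difference under all 14 alternatives to the fit. The log2 fold change of Csf1r ran from -1.02 to -0.85 with 1 library left out, that of Csf1 from 0.92 to 0.97 and that of Il34 from -0.91 to -0.65. Csf1 moved beyond its replicate spread to 1.00 with total counts in place of TMM and to 1.04 with offsets for transcript length and GC content, and Il34 to -0.57 with those offsets. Per kilobase of the mean transcript, Csf1r was at 36.0 CPM in shCopa and 67.7 CPM in shCon and Csf1 at 351 and 182 CPM; with total counts, shCopa had 19.0 CPM for Csf1r and 167 CPM for Csf1 per kb. Genes higher in shCopa numbered 2691, and 1778 to 4317 with 1 library left out. Genes lower numbered 2720, and 1755 to 4122. The highest number in each direction came without shCon 1 and the lowest without shCopa 3. No scaling moved the median of all genes by more than 0.1 on the log2 scale.

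With 1 library left out, 3 to 7 signal relay genes rose and 3 to 9 fell, 2 to 4 negative regulators fell, 1 to 3 genes of shedding and other IL-34 receptors rose, 1 to 3 transcription factors rose and 1 to 4 fell, 0 to 2 ERK-responsive genes fell, and 1 to 3 class III genes rose. In the shedding list 2 rose with total counts, 2 with DESeq2 and 3 with the length and GC offsets. Of the transcription factors, 1 rose with the filter of 1 CPM in 3 libraries, and 2 fell with total counts. Of the ERK-responsive genes, 3 fell with the length and GC offsets. Of the other colony-stimulating factors, 1 rose with the filter of 1 CPM and 1 fell with no filter. The numbers over all genes differed between these settings too. With total counts 3013 genes were higher and 2422 lower, and with DESeq2 2985 and 3057. With the length and GC offsets 3850 were higher and 3503 lower. With the filter of 1 CPM these were 2508 and 2601 of 13357 tested genes, and with no filter 2618 and 2774 of 27462. The cause of the changes in the lists was not tested. Deviations of same-numbered libraries correlated at -0.162, -0.0583 and -0.114, and those of other-numbered libraries at -0.113 to 0.225. Taken from means of only 3 libraries, these deviations cannot show whether the libraries were prepared in pairs. With the replicate block, 1 transcription factor rose and 1 fell, and 1964 genes were higher and 1939 lower in shCopa. Fyn, Jun, Runx1, Tfec and Cebpa no longer passed with the block.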
